A study of Mus musculus with 15 samples.

Results

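The matrix metalloproteinases (MMPs) and tissue inhibitors of metalloproteinases (TIMPs) that mouse embryonic fibroblasts express are reported here. They were followed through loss of CIZ1, adaptation to long-term culture and induced re-expression of CIZ1. The 10 genes are Mmp2, Mmp3, Mmp9, Mmp10, Mmp11, Mmp13, Mmp14, Timp1, Timp2 and Timp3, and they were chosen by name from the gene symbols of the expression table. They occupy 18 of its 65522 transcription units, the assembled loci to which fragments were assigned. Expression was measured by RNA-seq of poly(A) RNA in 15 cell populations and is given as FPKM, fragments per kilobase of transcript scaled to the mapped fragments of the library.

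MMPs are zinc-dependent proteases that cut collagens, proteoglycans and other proteins of the extracellular matrix. They are made as inactive precursors, and once active they are blocked by TIMPs, which bind the active site. Fibroblasts are a main source of both, and in these cells the collagenases and stromelysins are classical targets of growth factor and phorbol ester signalling through AP-1 sites close to their transcription starts.

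All populations came from female C57BL/6 embryos. The 3 primary WT populations were collected before passage 5, and 3 culture-adapted WT lines were derived from the same embryos by serial passage until rapid growth returned at about passage 20. The CIZ1 null cells are homozygous for a gene trap with a neomycin resistance gene downstream of exon 1 of Ciz1. Of the 3 primary CIZ1 null populations, those from E14.2 and E13.15 had no transgene, and the one from E13.17 carried an untreated transgene for doxycycline-inducible GFP-CIZ1. The 3 adapted CIZ1 null lines were again derived from these embryos. The paper lists the adapted line of E13.17 as carrying the inducible transgene as well, and it was untreated. A further 3 primary CIZ1 null samples, S13 to S15, also carried the transactivator and responder transgenes. Of these, S13 was untreated, while S14 and S15 received doxycycline at 5 to 10 µg/ml. Each adapted line is a single derivation from its embryo, so that the change on adaptation was seen in 3 lines per genotype. Values of 3 samples of a group are given in a fixed order of embryos, which is E14.4, then E13.1, then E13.8 for WT, and E14.2, then E13.15, then E13.17 for CIZ1 null cells. Ciz1 stood at 18.7 to 25.0 FPKM in the 6 WT samples, at 0.0546 to 0.724 in the 7 CIZ1 null samples without doxycycline, and at 296 and 191 in S14 and S15.

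All 10 fibroblast markers reached 1 FPKM in the primary groups, but their summed level was lower in adapted lines (2936 to 6678 FPKM in WT and 2570 to 6125 in CIZ1 null lines) than in primary cells (10240 to 11000 and 10300 to 10480). Single markers went different ways in adapted WT lines, with Fap at 0.144 FPKM at most, below all 3 primary WT populations, and Dcn from 0.984 to 905, on both sides of its 24.1 to 34.0 in primary WT cells. Macrophage and leukocyte markers were low and uneven. The 7 of the list summed to between 9.04 and 90.5 FPKM in primary samples and to between 2.61 and 20.0 in adapted lines, where Tyrobp was listed at 0 in all 6. Cd14 did not follow them, at 1.40 to 8.81 FPKM in adapted lines against 0.760 to 2.10 in primary WT and CIZ1 null cells. Library depth, read from the steps of low FPKM values and set to 1 for primary WT E14.4, ran from 0.481 in S13 to 1.62 in primary WT E13.1. In bulk RNA, fewer cells that express a gene cannot be told apart from less RNA per cell.

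The genes with the widest swings, Mmp3, Mmp10 and Mmp13, lie in one cluster of 10 MMP genes on chromosome 9 (GRCm38, chr9:7272514-7699585). The stretch around the AP-1 letters in each of their promoters is shown because it is a short stretch that these neighbours have in common. Sequences are from RefSeq (GRCm38.p6), on the plus strand, with the match TGAGTCA or its reverse complement TGACTCA in capitals.
Mmp3, chr9:7445766-7445792: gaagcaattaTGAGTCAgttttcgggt
Mmp10, chr9:7502269-7502295: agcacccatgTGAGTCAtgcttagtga
Mmp13, chr9:7272469-7272495: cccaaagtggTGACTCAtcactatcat
The capitals span positions -46 to -40 from the start in Mmp3, -63 to -57 in Mmp10 and -35 to -29 in Mmp13. Both orientations were searched in windows of 250 bases before to 50 after each start, and 5.2% of 32851 mouse promoters hold the letters (1709). Of the 10 members, 8 were in the promoter table. The letters were not in these windows of Mmp11, Mmp14, Timp1, Timp2 and Timp3. Elsewhere in the cluster they occur in Mmp1a, Mmp1b, Mmp7 and at a start of Mmp12. A match is a description of the letters and not evidence of a bound factor.

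Seen across the 15 samples, primary fibroblasts made much Mmp14, Timp1, Timp2, Timp3 and Mmp2 and little of the other MMPs. Mmp14, the membrane-anchored protease that activates the MMP2 precursor together with TIMP2, stood at 408 ± 47.5 FPKM in primary WT and 358 ± 33.8 in primary CIZ1 null cells (SD, n = 3). Timp1, a secreted inhibitor of most MMPs, was the most abundant member, at 1117 ± 103 and 788 ± 199 FPKM. The stromelysin Mmp10 stood lowest in primary WT cells, at 1.33 ± 0.317 FPKM. The plot of all 10 genes by sample shows the primary and adapted values of each embryo.

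**Figure D1:**
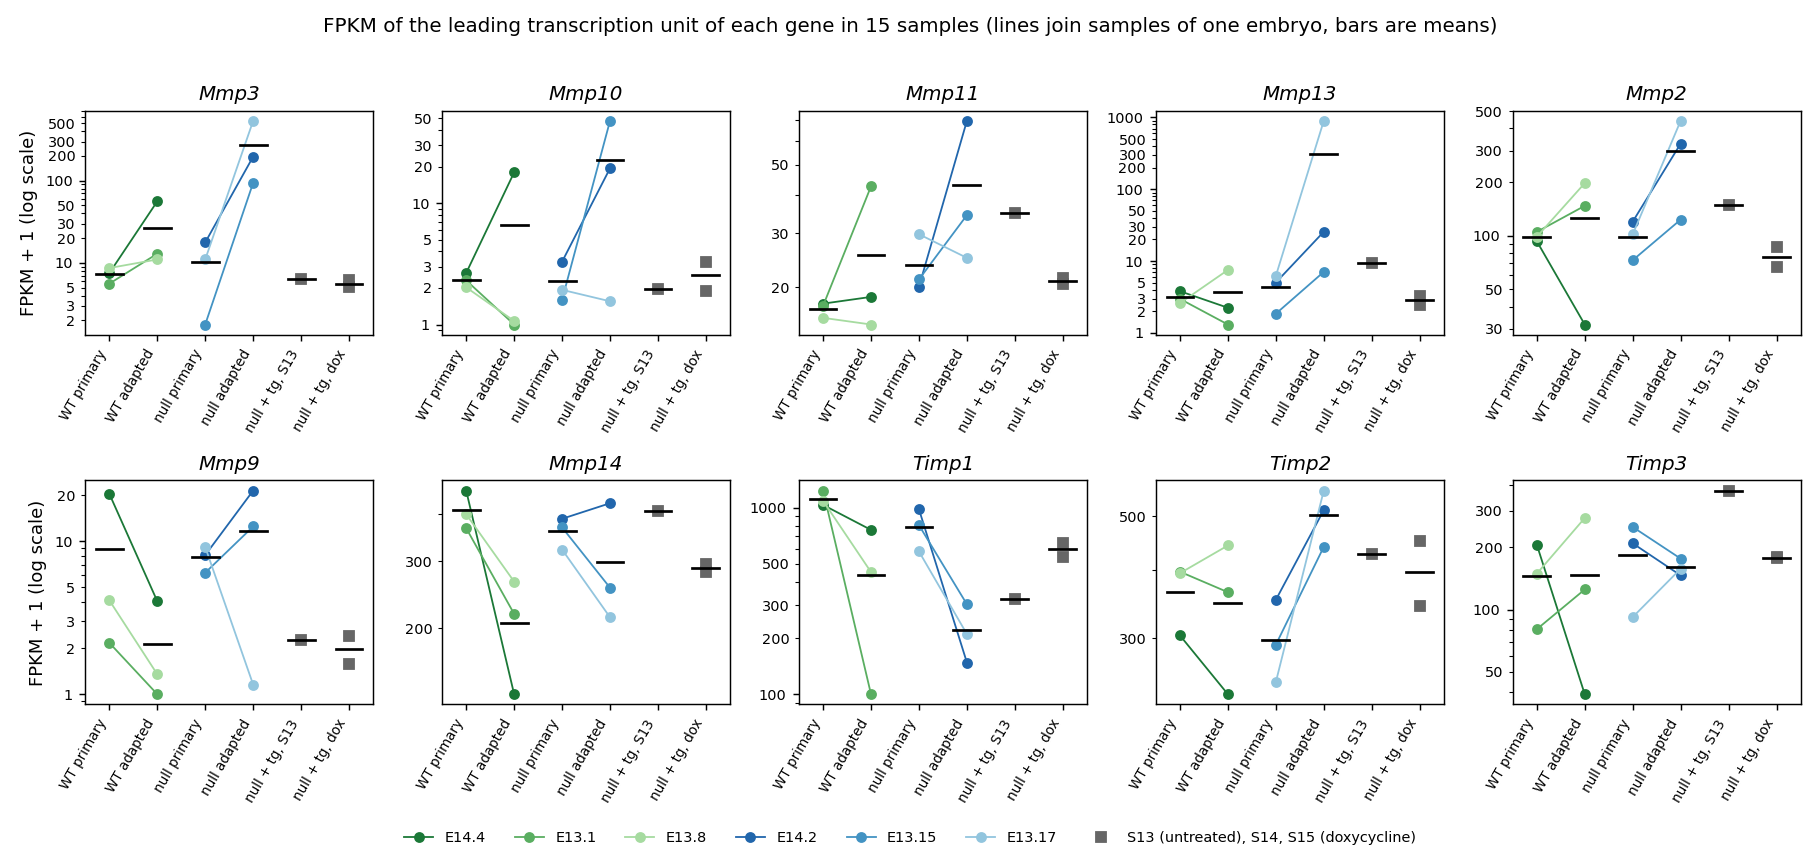
FPKM + 1 (log axis, a separate range for each gene) of the leading transcription unit of each of the 10 genes in 15 samples. Circles joined by a line are the primary and adapted samples of an embryo, squares are transgenic (tg) samples S13 (untreated) and S14 and S15 (doxycycline, dox), and bars are group means. Mmp3 rises along all 6 lines and most steeply along the 3 CIZ1 null lines, Timp1 falls along all 6, and Mmp13 reaches 894 FPKM in a single line.

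This spread was larger in adapted lines. On the log2(FPKM + 1) scale, the SD among the 3 adapted WT lines exceeded that among the 3 primary WT populations in 9 of 10 genes, with a median SD of 1.29 against 0.208. Over all 19919 units tested, 77.6% spread more in the adapted WT lines, and the median SD was 0.364 against 0.185. In CIZ1 null cells 7 of 10 genes spread more after adaptation, with a median SD of 0.861 against 0.373. Over all units the share was 72.3%, with a median SD of 0.358 against 0.216. Mmp3, Timp2 and Timp3 were the exceptions, each being closer together in the adapted CIZ1 null lines than in the primary ones.

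Adaptation of CIZ1 null cells was the comparison in which members passed the test. Of their 18 units, all tested, 3 were called at an adjusted p under 0.05 (limma on log2(FPKM + 1), Benjamini-Hochberg adjustment over all units): both units of Mmp3 rose and Timp1 fell. That is 2 of 10 genes, where 4.86% of all 20044 units were called, 1.4% higher and 3.47% lower. An unadjusted p under 0.05 was reached by 7 of the 18, against 29.3% of all units. The 2 groups did not overlap in 9 of the 18 units, and 37.1% of all units did not overlap. None of the 18 units was called in a fit that paired samples by embryo (a block term). The median log2 change over the leading (most abundant) units was 0.75, against -0.04 over all units tested.

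Among the stromelysins, Mmp3 cleaves proteoglycans and other matrix proteins and activates the precursors of several other MMPs. In the primary CIZ1 null populations it measured 16.7, 0.777 and 10.0 FPKM. The adapted lines of the same embryos gave 195, 93.3 and 534 FPKM. Every adapted line was above every primary population, and Mmp3 was higher in each embryo's line than in its own primary cells, by 3.47, 5.73 and 5.61 on the log2(FPKM + 1) scale. The group means were 9.16 ± 8.0 and 274 ± 231 FPKM (SD, n = 3), a ratio of 30.0, and the log2 change was 4.94 with a standard error of 0.99 (limma, adjusted p = 0.0466). The other unit of Mmp3 changed by 5.02 (SE 0.78, adjusted p = 0.0295). In the fit blocked by embryo, both units had an adjusted p of 0.0708. Of 15 alternatives, 2 are the same fit (leaving out primary E13.17, and keeping only the primary CIZ1 null samples without the transgene). Over the 15, the log2 change of the leading unit ran from 3.94 to 5.60 and its adjusted p from 0.00925 to 0.137. The leading unit was called in 5 and the other unit in 8. The call was lost for both when any 1 of the primary populations, or the adapted line of E14.2, was left out. For the leading unit it was also lost without the adapted line of E13.17.

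In WT cells Mmp3 moved the same way by a smaller amount. Primary cells gave 6.5, 4.58 and 7.64 FPKM, and their adapted lines gave 55.1, 11.9 and 10.0. The 3 adapted lines were all above the 3 primary populations, with E14.4 far above the others. The log2 change of 1.49 (SE 0.62) did not pass the test (limma, adjusted p = 0.163).

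Set side by side, the adapted CIZ1 null lines held 10.7 times the mean Mmp3 of the adapted WT lines, and the groups did not overlap, as the lowest CIZ1 null line (93.3 FPKM) was above the highest WT line (55.1). The log2 difference was 3.43 (SE 0.83, unadjusted p = 0.00512, adjusted p = 0.998, limma). The test of whether adaptation changed Mmp3 by different amounts in the 2 genotypes gave a log2 difference of 3.45 (SE 1.28, unadjusted p = 0.0211, adjusted p = 0.996). Neither passed the threshold over all units. In primary cells Mmp3 differed between genotypes by -0.02 (SE 0.79), and the CIZ1 null populations reached both above and below the WT range.

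Mmp10, stromelysin-2, lies beyond Mmp1a from Mmp3 in the cluster and did not keep step with Mmp3. Its level in primary cells was 0.602 to 2.29 FPKM in all 6 populations of both genotypes. Adapted CIZ1 null lines gave 46.6 FPKM in E13.15 and 18.3 in E14.2, while E13.17, the line with the most Mmp3, gave 0.553. Adapted WT lines gave 16.9 FPKM in E14.4 and 0.0693 in E13.8, and the gene was listed at 0 in E13.1. High and low lines thus occurred in both genotypes, and every comparison of groups overlapped. The log2 change on adaptation was 2.38 (SE 1.19, adjusted p = 0.235) in CIZ1 null and 0.21 (SE 1.09, adjusted p = 0.915) in WT cells (limma). The change of Mmp10 in CIZ1 null cells was 3.81 and called without adapted E13.17 (adjusted p = 0.0307), and 1.34 without adapted E13.15.

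Mmp11, stromelysin-3, differs from the other stromelysins in being activated inside the cell by furin. It was even in primary WT cells, at 16.7, 16.4 and 14.9 FPKM in the primary WT populations. Primary CIZ1 null cells gave 19.1, 20.2 and 28.8 FPKM. All 3 stood above all 3 WT populations, by 0.46 on the log2 scale (SE 0.17, unadjusted p = 0.0338, adjusted p = 0.776, limma). Its level in adapted lines was 17.6, 41.6 and 14.2 FPKM in WT and 68.5, 33.3 and 23.9 in CIZ1 null cells, and these groups overlapped.

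Mmp13, the main interstitial collagenase of rodents, had the widest range of the leading units within a group of samples above 0, at 147-fold among adapted CIZ1 null lines. Primary CIZ1 null cells gave 4.02, 0.845 and 5.20 FPKM, and the adapted lines gave 24.6, 6.06 and 894. All adapted lines were above all primary populations, and E13.17 stood far above the others. Its change of 7.17 on the log2(FPKM + 1) scale compares with 2.35 and 1.94 in E14.2 and E13.15. The group change of 3.82 (SE 1.70) did not pass the test (limma, adjusted p = 0.191). In WT cells Mmp13 went from 2.80 to 1.24 FPKM in E14.4, from 1.97 to 0.308 in E13.1 and from 1.59 to 6.51 in E13.8. It moved in different directions between embryos, and the highest adapted WT line overlapped the lowest CIZ1 null line. The difference between adapted genotypes was 4.28 on the log2 scale (SE 1.74, unadjusted p = 0.0454, adjusted p = 0.998).

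The remaining 7 genes of the cluster stayed low. Mmp12 (macrophage elastase) reached 9.06 FPKM and Mmp27 1.31, while Mmp1a (a polymorphic pseudogene in the annotation), Mmp1b, Mmp7 and Mmp8 stayed between 0.150 and 0.606 at their highest, and Mmp20 (the enamel protease) was listed at 0 in every sample. Mmp1b and Mmp1a, which flank Mmp3 on either side, reached 0.321 and 0.161 FPKM at most in the adapted CIZ1 null lines in which Mmp3 stood at 93.3 to 534. Neighbours at this locus therefore differed in level within the same line, as the heat map in chromosomal order shows.

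**Figure D2:**
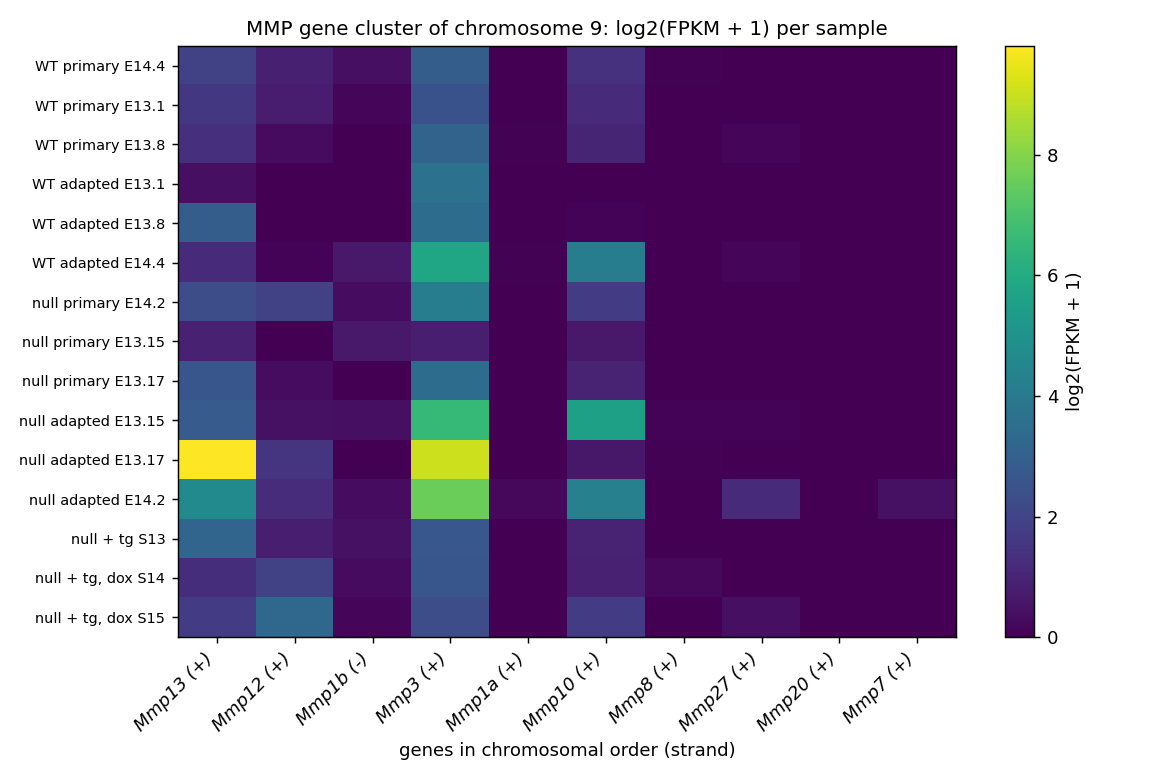
Heat map of log2(FPKM + 1) for the 10 genes of the chromosome 9 MMP cluster, in chromosomal order with strand (columns), in 15 samples (rows). Brighter colours are higher values. Mmp3 is bright in all 3 adapted CIZ1 null lines, Mmp13 is brightest in E13.17 and Mmp10 is dark in that line, while the columns from Mmp8 to Mmp7 stay dark.

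The gelatinases, which digest denatured collagen and basement membrane collagen, separated into an abundant and a scarce gene. Mmp2 (gelatinase A) was even in primary WT cells, at 92.1, 104 and 97.5 FPKM, and their adapted lines gave 30.7, 146 and 196. The line from E14.4 had less Mmp2 than its primary cells and the others had more, and the mean log2 change was -0.02 (SE 0.65, adjusted p = 0.985, limma). Without that line the change was 0.79 and passed the test (adjusted p = 0.0434).

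Mmp2 was higher after adaptation in all 3 CIZ1 null embryos. Primary populations gave 119, 71.8 and 101 FPKM, and their adapted lines gave 328, 122 and 440.4. The groups did not overlap, although adapted E13.15 was close to primary E14.2. The log2 change was 1.44 (SE 0.49) and was not called (limma, adjusted p = 0.119). Without adapted E13.15 it was called (adjusted p = 0.0181).

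Mmp9 (gelatinase B), known chiefly from leukocytes and from induced fibroblasts, was low and scattered. Primary WT cells gave 19.4 FPKM in E14.4, 1.17 in E13.1 and 3.11 in E13.8, and each adapted line was lower, at 3.06, 0 and 0.350. The log2 change of -1.69 (SE 0.91) was not called (limma, adjusted p = 0.259), and the blocked fit gave an adjusted p of 0.0607. The CIZ1 null values of Mmp9 went from 7.12 to 20.5 FPKM in E14.2 and from 5.23 to 11.5 in E13.15, but from 8.17 to 0.155 in E13.17. Adapted E13.17 was thus lowest of the CIZ1 null samples for Mmp9 and for Mmp10 and highest for Mmp3, Mmp13 and Mmp2. In the adapted lines with 20.5 and 11.5 FPKM of Mmp9, the macrophage markers Tyrobp and Lyz2 stood at 0 and at 13.2 and 3.04 FPKM, and primary CIZ1 null E14.2, with 7.12 FPKM of Mmp9, had 9.87 and 50.7. Cd14 was 4.75 and 2.21 in those adapted lines and 2.06 in primary E14.2, and the part of other cells in Mmp9 was not tested.

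Mmp14 had the smallest adjusted p of the members on adaptation of WT cells. Primary populations gave 459, 366 and 398 FPKM, and their adapted lines 133, 217 and 264. All adapted lines were below all primary populations. The log2 change of -1.04 (SE 0.27, unadjusted p = 0.00735) was just outside the threshold over all units (limma, adjusted p = 0.0609). It was inside with the 4 groups in one fit (0.0411), with array weights (0.0481) and without adapted E14.4 (0.0428). It was further outside with quantile normalization (-0.76, adjusted p = 0.124), when blocked by embryo (0.102) and without primary E14.4 (0.197, the highest of 13 alternatives). Mmp14 of CIZ1 null cells went from 387 to 425 FPKM in E14.2, from 367 to 255 in E13.15 and from 321 to 213 in E13.17. These groups overlapped, with a log2 change of -0.33 (SE 0.28, adjusted p = 0.468).

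For adaptation of WT cells as a whole, 0 of 16 units tested were called by limma, with 4 at an unadjusted p under 0.05. Of all 19919 units, 9.55% were called and 30.6% had an unadjusted p under 0.05. The groups did not overlap in 5 of the 16 units, against 38.7% of all units. The median log2 change over the 10 leading units was -0.12, and over all units -0.05.

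The inhibitors divided, with Timp1 lower and Timp2 higher in adapted CIZ1 null lines. Timp1 measured 978, 804 and 581 FPKM in the primary populations and 147, 302 and 209 in their adapted lines. All adapted lines were below all primary populations. The group means were 788 ± 199 and 219 ± 78.3 FPKM (SD, n = 3), so primary cells held 3.59 times as much, and the log2 change was -1.87 (SE 0.33, limma, adjusted p = 0.0355). Blocked by embryo it had an adjusted p of 0.0957, and with quantile normalization the change was -1.66 with an adjusted p of 0.0516. Of 15 alternatives, 2 of which are the same fit, 4 called it. Leaving out any 1 of the primary populations, or the adapted line of E13.17 or of E14.2, ended the call.

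In WT cells the change of Timp1 was not called and rested in part on one line. Primary populations gave 1033, 1232 and 1087 FPKM, and their adapted lines 758, 99.0 and 450.4. Every adapted line was below every primary population, but the lines differed 7.66-fold among themselves. The log2 change was -1.78 (SE 0.70, adjusted p = 0.145, limma), and -0.93 without adapted E13.1. The interaction between adaptation and genotype was -0.09 (SE 0.84, adjusted p = 0.999). In primary cells, Timp1 was lower in every CIZ1 null population than in every WT population, by -0.53 on the log2 scale (SE 0.20, unadjusted p = 0.0303, adjusted p = 0.776).

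Timp2, which inhibits MMPs and also takes part in MMP2 activation at the cell surface, went the other way. Primary CIZ1 null cells gave 351, 291 and 249 FPKM and the adapted lines 512, 439 and 556. All adapted lines were higher, and the log2 change of 0.76 (SE 0.20) was outside the threshold (limma, adjusted p = 0.0720). Quantile normalization put it inside (0.0470). In WT cells Timp2 went from 303 to 236 FPKM in E14.4, from 395 to 363 in E13.1 and from 393 to 441 in E13.8, with no common direction (-0.10, SE 0.26). The interaction was 0.87 (SE 0.34, unadjusted p = 0.0264, adjusted p = 0.996).

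Timp3, which stays bound to the matrix, did not separate by group. Primary WT cells gave 205, 79.4 and 148 FPKM, and the adapted lines 38.0, 124 and 276. In the CIZ1 null embryos it went from 208, 250.1 and 91.0 to 145, 176 and 157 FPKM. All groups overlapped, and the log2 change was -0.29 (SE 0.73) in WT and -0.08 (SE 0.38) in CIZ1 null cells. The adapted CIZ1 null lines lay within 1.21-fold of each other, and the adapted WT lines within 7.27-fold.

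Summed over leading units, MMP and TIMP transcripts changed their balance in adapted CIZ1 null lines. The ratio of the TIMP sum to the MMP sum was 2.58, 3.45 and 3.11 in primary WT and 2.77, 2.88 and 1.94 in primary CIZ1 null populations. In the adapted CIZ1 null lines it was 0.745, 1.62 and 0.437, below every primary sample. Adapted WT lines gave 4.01, 1.41 and 2.38, which spans the primary range on both sides. Mmp14 made up 67.6% to 78.7% of the MMP sum in the 6 primary samples and less in all 6 adapted lines. It was 51.7% to 53.8% in adapted WT lines, and 39.4% in E14.2, 44.9% in E13.15 and 10.1% in E13.17 among adapted CIZ1 null lines. In E13.17 Mmp13, Mmp3 and Mmp2 were each more abundant than Mmp14. The share of Timp1 in the TIMP sum was 59.8% to 72.2% in the same 6 primary samples and 18.3% to 33.0% in adapted CIZ1 null lines. Primary cells outside those 6 had less, at 28.8% in untreated S13, within that adapted range, and 50.8% and 51.1% in S14 and S15. Among adapted WT lines the share ran from 16.9% in E13.1 to 73.4% in E14.4. These sums describe transcripts and were not tested.

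**Figure D3:**
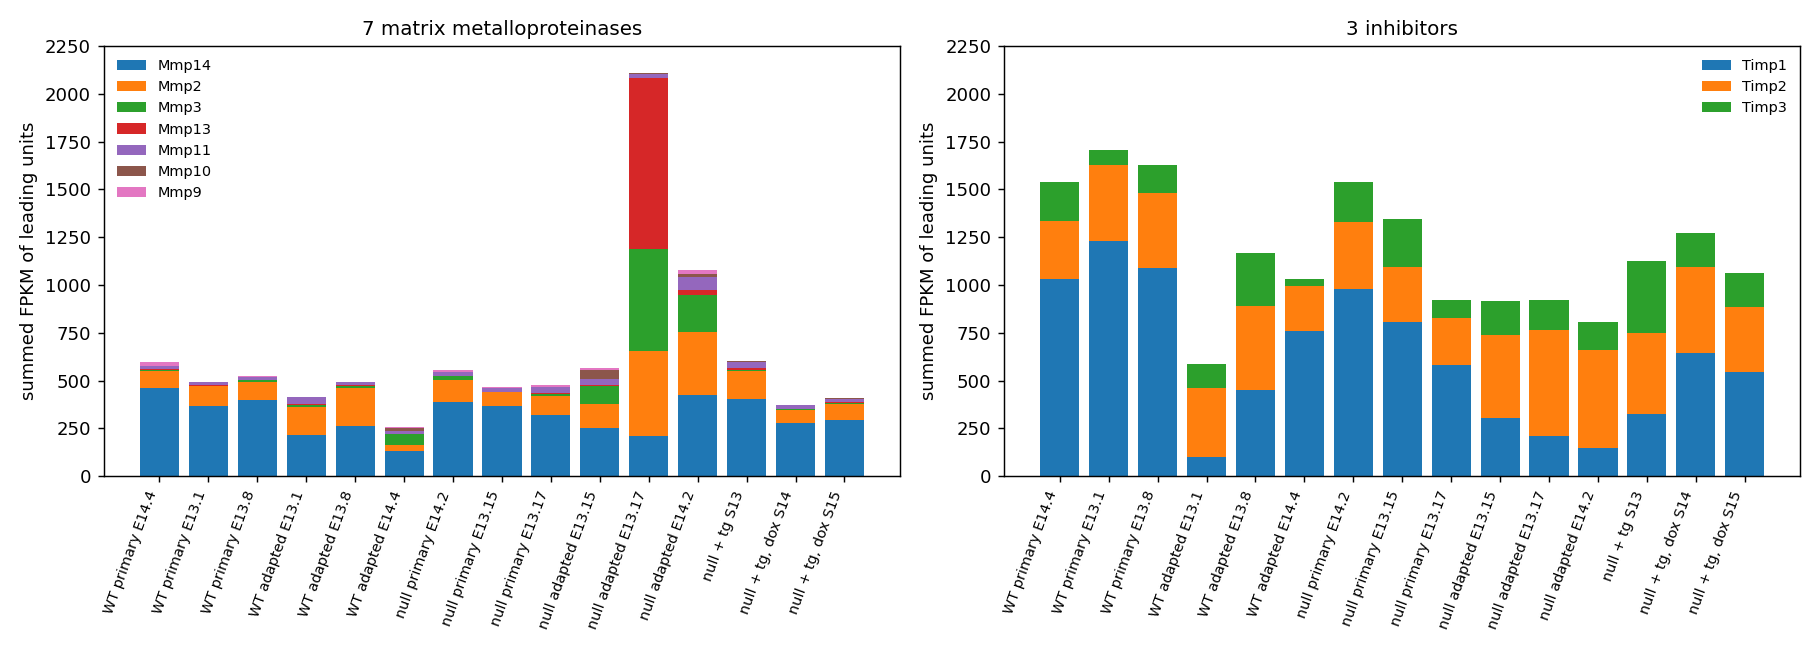
Summed FPKM of the leading units of 7 MMPs (left) and 3 TIMPs (right) in 15 samples, stacked by gene on the same scale from 0. The MMP bar of adapted CIZ1 null E13.17 reaches 2106 FPKM, of which Mmp13 and Mmp3 are the larger parts, and the TIMP bars of the adapted CIZ1 null lines lie between 804 and 921 FPKM.

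Loss of CIZ1 by itself gave no call among the members. In primary cells 0 of 17 units were called by limma, 3 had an unadjusted p under 0.05 and 4 did not overlap. Of all 19566 units, 0.00511% were called (1 unit, of Ciz1), 6.26% had an unadjusted p under 0.05 and 11.9% did not overlap. The 3 units were 2 of Mmp11 and that of Timp1. In adapted cells 0 of 18 units were called, 3 had an unadjusted p under 0.05 and 4 did not overlap, against 0.00501%, 4.02% and 8.28% of all units. Those 3 were the units of Mmp3 and the leading unit of Mmp13. The sign was higher in CIZ1 null lines for 9 of 10 leading units, all but Timp1, with a median log2 difference of 1.10 against 0.03 over all units. The interaction called 0 of 18 units and 0% of all units. Here 4 member units had an unadjusted p under 0.05, the units of Mmp3 and of Timp2, and 4.63% of all units did.

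**Figure D4:**
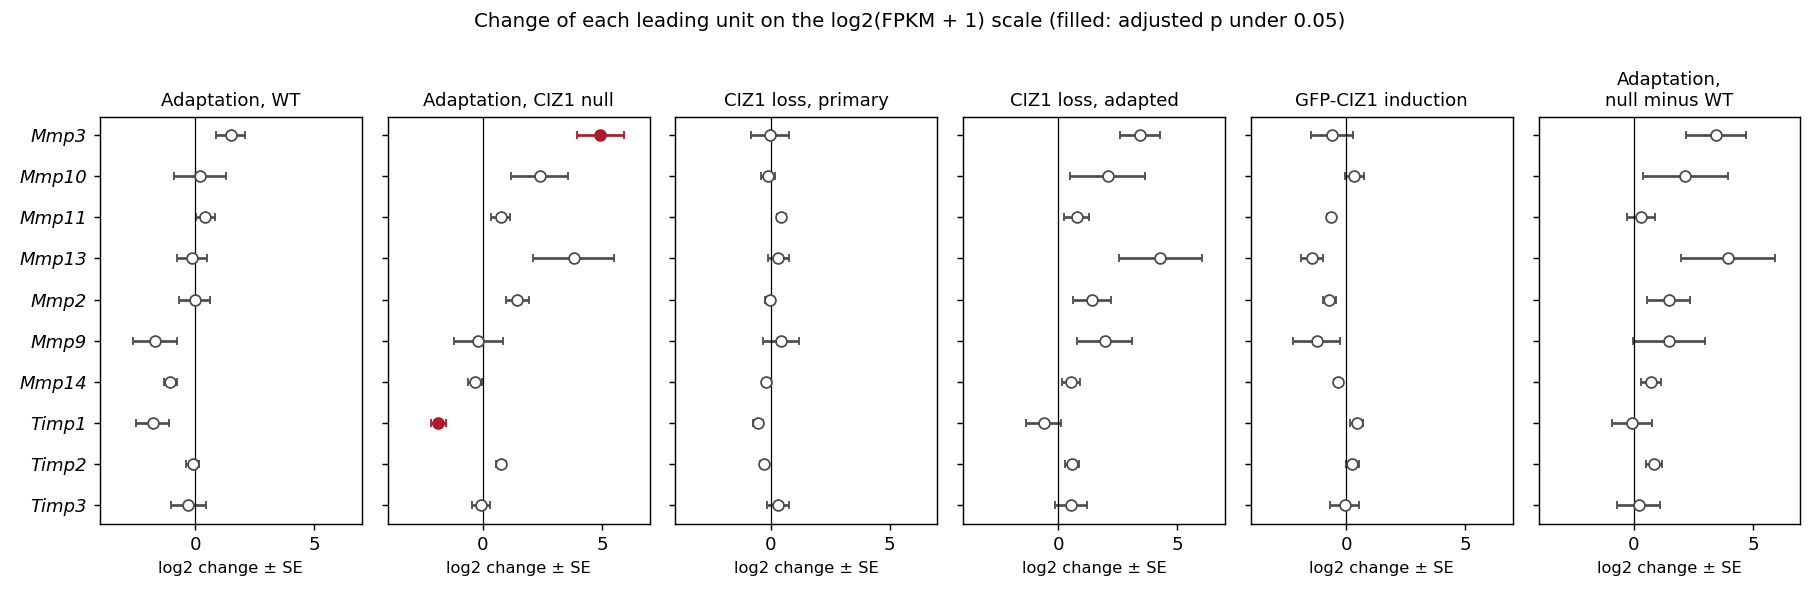
Change of the leading unit of each of the 10 genes on the log2(FPKM + 1) scale in 6 comparisons. Points are limma estimates, bars are standard errors and filled points have an adjusted p under 0.05. Filled are Mmp3 (4.94) and Timp1 (-1.87) in the panel for adaptation of CIZ1 null cells. The estimates for loss of CIZ1 in primary cells lie close to 0.

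Induction of GFP-CIZ1 asked whether these genes move when CIZ1 is expressed again in primary CIZ1 null cells. Ciz1 in S14 and S15, at 296 and 191 FPKM, stood above its WT range. No sample without the transgene received doxycycline, so effects of the drug and of CIZ1 cannot be told apart. The paper induced cells of E13.17 and of a further embryo, so treated and untreated samples are likely to share embryos. Which embryo S13, S14 and S15 each came from is not given per sample, and treated and untreated samples were compared here as unpaired. Of 16 units tested, 0 were called by limma, 4 had an unadjusted p under 0.05 and 8 did not overlap. Among all 19677 units, 0.0152% were called, 3.57% had an unadjusted p under 0.05 and 19.7% did not overlap. Of the leading units 7 of 10 were lower with doxycycline, with a median log2 change of -0.46 against 0.00 over all units.

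Mmp11 had the smallest p, at 28.8 and 34.0 FPKM in untreated E13.17 and S13 and 20.5 and 19.5 in S14 and S15. Both treated samples were below both untreated ones, by -0.62 on the log2 scale (SE 0.17, unadjusted p = 0.00606, adjusted p = 1, limma), at about the level of primary CIZ1 null E14.2 and E13.15, which had no transgene. Mmp13 went from 5.20 and 8.25 FPKM to 1.42 and 2.29 (log2 change -1.42, SE 0.46, unadjusted p = 0.0143). Mmp2 went from 101 and 147 FPKM to 65.3 and 85.0 (log2 change -0.70, SE 0.28, unadjusted p = 0.0368). None of these differences passed the adjustment. Mmp14 stood at 321 and 405 FPKM without and 280 and 295 with doxycycline.

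The inhibitors did not separate by treatment. Timp1 was 581 and 324 FPKM without and 647 and 544 with doxycycline, Timp2 was 249 and 426 against 449 and 342, and Timp3 was 91.0 and 376 against 177 and 178. The untreated pair differed by more than the treated pair for all 3. S13 was also the shallowest library, and the part of depth in these values was not tested.

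Mmp12, from the same cluster but not a member, was 0.261 and 0.755 FPKM in the untreated transgenic samples and between 2.84 and 9.06 with doxycycline (log2 change 2.06, SE 0.65, unadjusted p = 0.0127, adjusted p = 1, limma). Primary CIZ1 null E14.2, without transgene or doxycycline, had 2.79. The macrophage and leukocyte markers summed to 69.5 to 90.5 FPKM in the untreated and 64.4 to 86.0 in the treated pair. Tyrobp was 9.52 and 7.89 untreated and 7.45 and 12.7 treated.

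Among related proteases and regulators, nearly all calls on adaptation were downward. Of a list of 17 genes that holds other MMPs and Timp4, 6 passed the filter on low values in WT cells. They gave 8 units with a median log2 change of -0.18. Of these 8 units 1 was called, where 9.55% of all units were. That was Mmp19, which rose from 9.81 to 11.7 FPKM in primary to 17.5 to 25.8 in adapted WT cells. Its adjusted p was 0.0367 (limma), and 0.0874 when blocked by embryo. In CIZ1 null cells 2 of 8 units were called, against 4.86% of all units. Both were of Mmp17, a membrane-anchored MMP, and both fell. The first went from 4.06 to 7.64 FPKM in primary cells to 0.129 to 0.407 in adapted lines. Its log2 change was -2.35 (limma, adjusted p = 0.0209, and 0.0708 with the block). The same unit was also lower in WT cells, at 4.13 to 5.15 FPKM in primary and 0.117 to 2.565 in adapted cells, but was not called. The other unit of Mmp17 was likewise lower in every adapted WT line than in every primary WT population. Mmp23 was 35.2 to 42.2 FPKM in all 6 primary samples. In adapted lines it ranged from 0.408 to 21.1 in WT and from 0.0963 to 13.1 in CIZ1 null cells, and it was not called.

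Among 20 other MMP inhibitors, activators and regulators, 11 of 25 units tested were called on adaptation of WT cells, all lower, and 2 of 25 in CIZ1 null cells, both lower. Of all units, 6.68% and 3.47% were called lower. The median log2 change of the units was -1.45 and -0.63, against -0.05 and -0.04 over all units. The protease inhibitor Tfpi2 was among them in both, with a log2 change of -2.94 in WT (limma, adjusted p = 0.0212) and -2.60 in CIZ1 null cells (adjusted p = 0.0355, and 0.0946 when blocked by embryo). In WT cells Pcsk7, a proprotein convertase, fell from 606 to 908 FPKM in primary cells to 99.6 to 141 in adapted lines (limma, adjusted p = 0.00689). The same unit was lower after adaptation of CIZ1 null cells too, at 411 to 668 FPKM in primary cells and 18.4 to 293 in adapted lines, but was not called there. In CIZ1 null cells Furin, which activates Mmp11 and Mmp14 precursors, fell by 0.99 (adjusted p = 0.0468, and 0.0980 with the block). The fall of Furin was not confined to CIZ1 null cells. The same unit stood at 20.9 to 33.2 FPKM in primary WT cells and at 5.74 to 8.31 in adapted WT lines.

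The plasminogen activator system, whose product plasmin can activate MMP precursors, had 8 of 16 units called lower in WT and 3 of 15 called lower in CIZ1 null cells (6.68% and 3.47% of all units), with none higher and median log2 changes of -1.50 and -1.37. In WT cells Plau, the urokinase gene, changed by -1.83 (limma, adjusted p = 0.0219). In CIZ1 null cells the calls were Anxa2 (-2.17, adjusted p = 0.0215) and both units of S100a10 (-1.98 and -1.56), which encode a plasminogen receptor complex. None of these was called there when blocked by embryo. The same unit of Anxa2 was called in WT cells as well (-2.14, limma, adjusted p = 0.0122, and 0.0326 when blocked by embryo). Both units of S100a10 were also lower in every adapted WT line than in every primary WT population. Among 21 ADAM and ADAMTS genes, 4 of 30 units were called lower in WT (Adam19, Adam15 and both units of Adam12) and 1 of 30 in CIZ1 null cells (Adamts1), with medians of -0.54 and -0.36. When blocked by embryo, Adam15 (adjusted p = 0.0576) and Adamts1 (0.0839) were no longer called. The share of ADAM and ADAMTS units called in CIZ1 null cells is near the 3.47% of all units called lower there. None of these lists had a call in the comparisons of genotype, in the interaction or on induction.

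The genes whose pattern over the 15 samples was most like a member's are given as a description, because the samples share embryos and groups. For Timp1 these were Atad3a (Pearson r = 0.972), Eif3b (0.962) and Cdk18 (0.951), and for Mmp10 H2-T22 (0.940), Me1 (0.915) and Ccl7 (0.907). For Mmp2 a unit of Rbfox2 (0.931) and Trim44 (0.915) came first, for Mmp14 Tmed9 (0.923), for Mmp13 Slc1a4 (0.902) and for Mmp11 Lipa (0.893). The nearest to Mmp3 was Smad4 (0.886), to Timp3 Fstl1 (0.860), to Timp2 2610044O15Rik8 (0.840) and to Mmp9 Enc1 (0.826). No member was among the 3 nearest of another.

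For 7 of the 10 genes the table holds more than 1 unit under the gene's own symbol at the same locus. The libraries do not mark strand, so reads of such units cannot be told apart by strand. The leading unit exceeded the next by 2.94 to 3.50 times across samples for Mmp14, by 1.44 to 2.99 times for Mmp3 and by 1.60 to 2.17 times for Timp2. The locus of the Timp1 unit (chrX:20797814-20921004) is wider than the annotated gene (chrX:20870166-20874735) and holds 8 units. Timp1 lies within an intron of Syn1. That of Timp3 (chr10:86055125-86498896) holds 4 units and overlaps Syn3 in the same way.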

How the data were processed

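RNA-seq of poly(A) RNA was carried out on 15 populations of mouse embryonic fibroblasts. The authors trimmed reads with Cutadapt 1.8.3, aligned them to GRCm38 with HISAT2 2.0.5, assembled and merged transcripts with Cufflinks and Cuffmerge, and deposited FPKM per transcription unit normalised by Cuffnorm. They also deposited group comparisons by Cuffdiff 2.2.1 (log2 fold changes, p-values and q-values), which were not used. Groups follow the sample labels. The embryo of 12 samples was read from the study's per-line tables, where 1038 (WT) or 904 (CIZ1 null) values per sample were 100% identical to those deposited. Columns named after the samples were mapped to them, and no 2 samples were identical.

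Tests used limma 3.58.1 in R 4.3.3 on log2(FPKM + 1), with a trended prior, on units whose FPKM averaged at least 1 across the compared samples, and Benjamini-Hochberg adjustment over all units tested at a threshold of 0.05. Only the groups compared entered the fit. The interaction used 12 samples, and induction used the 9 primary samples in 4 groups. A fold change on this scale understates that of low genes. The step was tested on simulated data. The 3 samples of a WT or CIZ1 null group are separate embryos, and the embryos of S13, S14 and S15 were not used. Adapted and primary samples are paired by embryo, and the correlations of their deviations from group means over 20031 units were 0.146 (E13.1), -0.010 (E13.8), 0.210 (E14.4), 0.110 (E13.15), 0.089 (E13.17) and -0.019 (E14.2). A fit blocked by embryo was run as an alternative. The FPKM carry no fragment counts, so depth is relative, from units under 0.3 FPKM. The leading unit of a gene is the one with the highest mean FPKM. All units of the 10 genes are reported, and of other lists up to 4 called units with the largest change, or the 2 with the smallest p where none was called. One gene that this rule names is not reported here. Like patterns were ranked by Pearson r among 10810 units with a mean of at least 5 FPKM. The members and the lists were chosen with earlier results of these data known. Tables and plots were made in Python 3.11.15 (pandas 2.3.3, NumPy 2.4.6, Matplotlib 3.10.9).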

Additional observations from a re-analysis of the deposited data

How the results depend on the processing

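Calls on the members depended on which libraries entered. On adaptation of CIZ1 null cells, where 3 member units were called, 0 were called with the embryo as a replicate block, with no filter on FPKM, and with the 2 primary CIZ1 null samples without the transgene. Leaving out each sample in turn gave between 0 and 7, with 7 without adapted E13.15 and 0 without any 1 primary population or without adapted E14.2. A filter of 5 FPKM gave 3, quantile normalization 4, and a pseudocount of 0.1, array weights or 4 untreated primary samples 2 each. On adaptation of WT cells, where 0 were called, array weights gave 1, the 4 groups in one fit gave 2, and leaving out each sample gave between 0 and 3 (3 without adapted E14.4). The other settings, the embryo block included, gave 0. The change of Mmp2 in WT cells, -0.02, ran from -0.53 to 0.79 when a sample was left out, and at 0.79, without adapted E14.4, it was called, and its other unit, 0.22 with all samples, was 0.98 there. The cause of these shifts was not tested, beyond the smaller number of samples. No member was called under any alternative run for loss of CIZ1 in primary or adapted cells, for the interaction (embryo block included) or for induction. Over all units, calls on adaptation fell from 1902 to 499 in WT and from 975 to 10 in CIZ1 null cells with the block. Leaving out 1 sample gave 62 to 2972 and 25 to 2999. Quantile normalization gave 982 higher and 1081 lower in WT, against 572 and 1330, and 351 and 501 in CIZ1 null cells, against 280 and 695. It moved the median of all units from -0.05 to 0.06 in WT and from -0.04 to 0.06 in CIZ1 null cells. Array weights and the 4 groups in one fit gave 1936 and 2907 calls in CIZ1 null cells, no filter 322, the 2 primary samples 30 and the 4 untreated primary samples 449. The interaction had between 0 and 234 calls when a sample was left out. Where a fit left 2 samples in a group, they were assumed to vary like the other group.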
